A study of Mus musculus with 9 samples.

Results

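The genes described here are 10 nuclear-encoded subunits of cytochrome c oxidase that form 5 pairs, each pair holding a tissue-specific and a common isoform of the same subunit. The tissue-specific isoforms are Cox4i2, Cox6a2, Cox6b2, Cox7a1 and Cox8b, and the common isoforms are Cox4i1, Cox6a1, Cox6b1, Cox7a2 and Cox8a. Members were taken as probe sets annotated to 1 of these symbols alone, which gave 16 probe sets for the 10 genes, among 45037 probe sets and 18193 singly annotated genes on the array. Where a gene had several probe sets, its representative was chosen by the highest mean signal over the 9 arrays, so the order of mean signals is a description only. Of the 10 genes, 8 passed the filter on low signals, which asked for a signal above 15.6 on at least 3 arrays, and these 8 were tested among 12466 genes. The 2 that did not pass, Cox4i2 and Cox8b, are tissue-specific isoforms.

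The study measured liver RNA of female Crlj:CD1(ICR) mice, an outbred stock, on Affymetrix expression arrays. The permethrin group was fed the pyrethroid insecticide permethrin at 5000 ppm in powdered diet for 2 weeks, and the clofibrate group was fed 5000 ppm clofibrate, a fibrate drug that activates the nuclear receptor PPARα, for the same time. The control group received the powdered diet alone. The mice were 9 weeks old when bought and were quarantined for 1 week, and each group had 3 mice with 1 array per liver, labelled as biological replicates. The description of the treated samples calls the animals rats, while the organism and source labels, the array and the gene annotation are mouse. Both treated groups were set against the same 3 control livers, so the comparisons with control share those arrays.

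Cytochrome c oxidase is the last enzyme of the mitochondrial respiratory chain, and it passes electrons from cytochrome c to oxygen while pumping protons across the inner membrane. Its catalytic core is encoded by the mitochondrial genome, and the nuclear subunits around that core stabilise and regulate the enzyme. For several nuclear subunits a second gene is used in place of the common one in particular tissues: Cox6a2, Cox7a1 and Cox8b in heart and skeletal muscle, with Cox7a1 and Cox8b also in brown fat, Cox4i2 in lung, and Cox6b2 in testis. Liver is known for using the common isoforms.

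The promoters of the subunit VIb pair are shown because this pair held the one member whose signal changed past the test's threshold. They are RefSeq sequences of build GRCm38.p6, cover 250 bases before to 50 bases after the gene's start, and are written on the gene's own strand. Promoters were matched for 7 of the 10 members; Cox4i2, Cox6a2 and Cox4i1 were not matched. The Cox6b2 promoter lies at chr7:4753045-4753344 and the Cox6b1 promoter at chr7:30626065-30626364, both on the minus strand, and capitals mark the CCAAT box (CCAAT, or ATTGG on the other strand) and the GABP ETS core (CCGGAAG, or CTTCCGG on the other strand).
Cox6b2: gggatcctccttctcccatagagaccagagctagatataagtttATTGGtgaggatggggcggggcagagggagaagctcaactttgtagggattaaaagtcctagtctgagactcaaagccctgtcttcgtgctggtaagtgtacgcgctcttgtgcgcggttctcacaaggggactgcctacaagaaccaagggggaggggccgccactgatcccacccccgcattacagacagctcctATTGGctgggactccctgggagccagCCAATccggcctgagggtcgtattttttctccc
Cox6b1: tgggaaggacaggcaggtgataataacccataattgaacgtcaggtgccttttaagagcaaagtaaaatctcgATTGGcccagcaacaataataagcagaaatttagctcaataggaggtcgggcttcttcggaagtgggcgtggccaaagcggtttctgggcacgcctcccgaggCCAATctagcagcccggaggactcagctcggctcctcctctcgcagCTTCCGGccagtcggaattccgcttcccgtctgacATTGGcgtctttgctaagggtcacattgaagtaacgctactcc
The letters CCGGAAG, the core bound by the ETS-family factor GABP, were present in 3 of the 4 common isoforms with a promoter (Cox6a1, Cox6b1 and Cox8a) and in 0 of the 3 tissue-specific ones, against 8.86% of 32851 promoters of the same length, both strands counted. The letters CCAAT were present in 5 of the 7 promoters, Cox6b2 and Cox6b1 included, against 37.4% of all promoters. AGGTCA, the half-site of many nuclear receptors, was in 0 of the 7, against 16.3% of all. A match is a description of these letters, and no match speaks only of these 300 bases.

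Facts of the arrays as a whole were as follows. The authors' MAS5 signals had been scaled to the same trimmed mean of 100.001 on every array, and their medians ran from 13.4 to 17.9. Acot1, Vnn1, Cd36 and Ehhadh, genes known to respond to PPARα activators, rose with permethrin and with clofibrate, Acot1 by 8.44-fold with permethrin and 17.1-fold with clofibrate. Cyp2b10, a target of the drug-sensing receptor CAR, rose with permethrin and fell with clofibrate. The summed signal of 6 hepatocyte markers ranged from 55146 to 59795 in permethrin livers, 43102 to 53940 in clofibrate livers and 60971 to 64864 in control livers. With clofibrate 3 of the 6 were called lower, where 3.8% of all tested genes were. The number was 0 of the 6 with quantile normalization, with arrays centred on their median and with arrays scaled to the hybridization controls. The median log2 fold change of these markers with clofibrate was -0.40, and -0.02, -0.29 and -0.06 in those settings. The brightest of the 6 markers, Apoa1, a lipoprotein component, had signals from 11527 to 13032 in permethrin livers, 9172 to 12058 in clofibrate livers and 13394 to 14387 in control livers. In whole liver, fewer cells of a type and less RNA per cell cannot be told apart.

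Cox6b2, the testis isoform of subunit VIb, which faces the intermembrane space at the contact within the oxidase dimer, was the member that differed most between groups. Its signals were 17.6, 30.3 and 26.0 in permethrin livers, 101, 302 and 220 in clofibrate livers, and 9.24, 12.3 and 13.9 in control livers. The 3 groups did not overlap: every clofibrate liver was above every permethrin liver, and every permethrin liver was above every control liver. All 3 control signals were below the filter, so the gene passed it only through the treated livers. The means were 24.6 ± 6.45 in permethrin livers, 208 ± 101 in clofibrate livers and 11.8 ± 2.39 in control livers (SD, n = 3 each).

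Cox6b2 rose by 3.68 ± 0.35 on the log2 scale with clofibrate (SE; 95% interval 2.91 to 4.44; limma, adjusted p = 0.000163), a 12.8-fold change after the offset of 3.35 that was added to every signal. The ratio of the mean signals was 17.6, and with the control livers set at the filter's signal the change was at least 12.1-fold. Under permethrin the log2 fold change was 0.87 ± 0.35 (95% interval 0.10 to 1.63), with an unadjusted p of 0.0294 and an adjusted p of 0.291 by limma, and so it did not pass the test. The difference between the treated groups was itself tested: Cox6b2 was lower in permethrin than in clofibrate livers by a log2 change of -2.81 ± 0.35 (95% interval -3.57 to -2.05; limma, adjusted p = 0.00558). Clofibrate replicate 1 was the lowest clofibrate liver, and without it the clofibrate log2 fold change was 4.12. The array has 1 probe set for Cox6b2, so no second probe set bears on these values.

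Its common partner Cox6b1, the form of subunit VIb used in most tissues, was among the brightest probe sets. Its signals were 6602, 7250 and 7357 in permethrin livers, 5195, 6727 and 6615 in clofibrate livers, and 7303, 6992 and 6903 in control livers. The permethrin and control signals overlapped, while all clofibrate livers were below all control livers. The log2 fold change was -0.00046 ± 0.11 with permethrin (95% interval -0.23 to 0.23; limma, adjusted p = 0.999) and -0.20 ± 0.11 with clofibrate (95% interval -0.43 to 0.03; adjusted p = 0.333). Clofibrate replicate 1 was the lowest clofibrate liver, and without it the clofibrate log2 fold change was -0.083. A second Cox6b1 probe set gave 0.08 with permethrin and -0.03 with clofibrate, and neither probe set passed the test. In clofibrate livers the tissue-specific isoform of the pair rose and the common isoform did not pass the test in either direction.

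**Figure D1:**
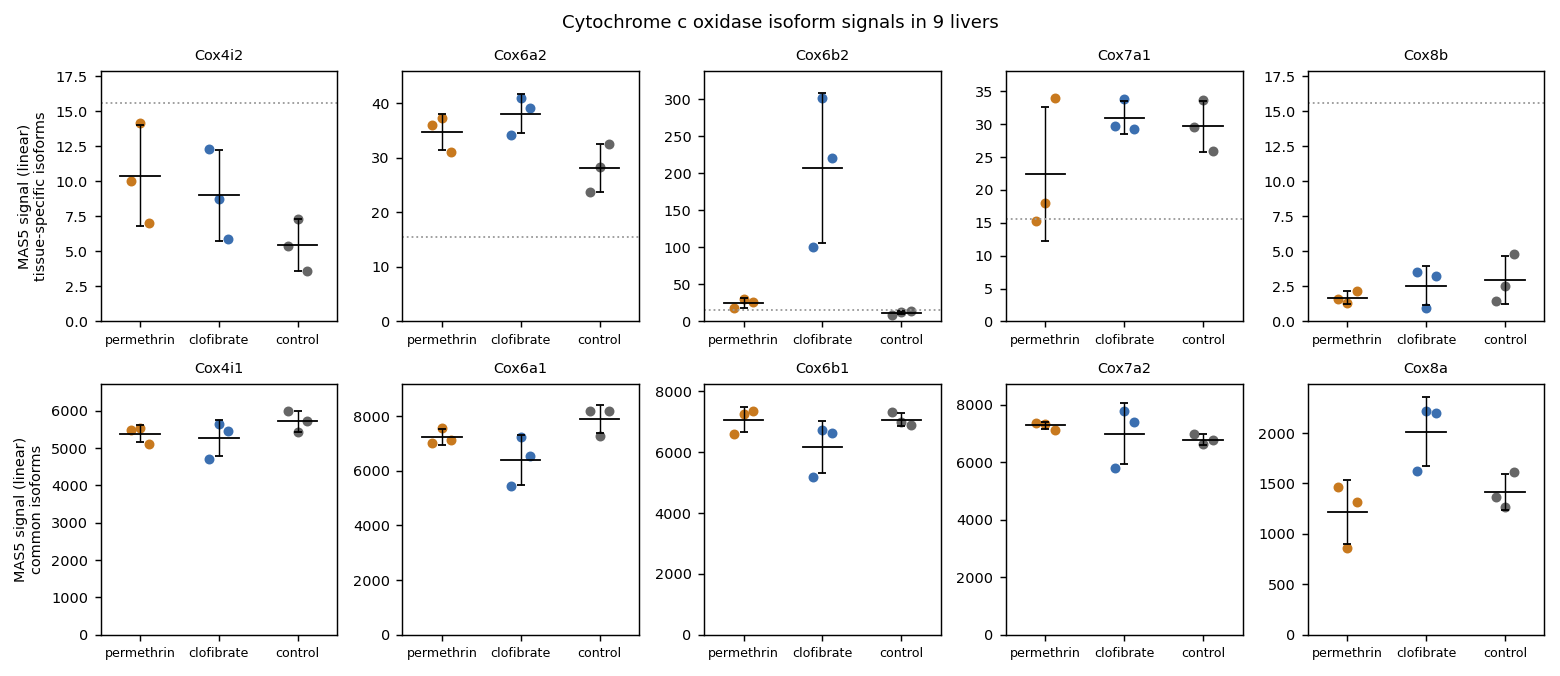
MAS5 signal on a linear axis starting at 0 for the 10 isoforms, tissue-specific in the upper row and common in the lower row; each point is 1 liver, the bar is the group mean, the error bar is 1 SD (n = 3), and the dotted line in the upper row is the filter signal of 15.6. Cox6b2 separates the 3 groups, with means of 24.6 in permethrin, 208 in clofibrate and 11.8 in control livers, while all 9 livers of Cox4i2 and of Cox8b lie under the filter line.

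Cox6a2, the heart and skeletal muscle isoform of subunit VIa, a regulatory subunit, was above the filter on all 9 arrays. Its signals were 36.0, 37.2 and 31.1 in permethrin livers, 34.1, 41.1 and 39.2 in clofibrate livers, and 23.8, 28.3 and 32.6 in control livers. All clofibrate livers were above all control livers, and the permethrin livers overlapped the controls. The log2 fold changes were 0.28 ± 0.19 with permethrin (95% interval -0.14 to 0.70; limma, adjusted p = 0.578) and 0.40 ± 0.19 with clofibrate (95% interval -0.02 to 0.82; adjusted p = 0.291), so neither passed. The other Cox6a2 probe set, with group means between 2.31 and 3.21, was below the filter and not tested.

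Cox6a1, the common form of subunit VIa, had signals of 7023, 7574 and 7136 in permethrin livers, 5434, 7235 and 6536 in clofibrate livers, and 8190, 7285 and 8176 in control livers. The clofibrate livers were all below the controls, and the permethrin livers overlapped them. The log2 fold change with clofibrate was -0.31 ± 0.11, with an unadjusted p of 0.0149 and an adjusted p of 0.134 by limma, and with permethrin it was -0.12 ± 0.11 (adjusted p = 0.675). Without clofibrate replicate 1, again the lowest clofibrate liver, the clofibrate log2 fold change was -0.195. The probe sets of this gene disagreed: a second one gave 0.09 with clofibrate (limma, adjusted p = 0.722). In the within-array difference between the isoforms, that second probe set turned the sign of permethrin against clofibrate for this pair.

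Cox7a1, the heart, muscle and brown fat isoform of subunit VIIa, which lies where oxidase monomers and respiratory supercomplexes meet, was above the filter on 8 of 9 arrays. Its signals were 15.3, 17.97 and 34.1 in permethrin livers, 29.8, 33.9 and 29.2 in clofibrate livers, and 29.6, 33.6 and 25.9 in control livers. In the permethrin group 2 livers were below every other liver and the third was the highest of all 9, so the groups overlapped. The log2 fold change was -0.42 ± 0.27 with permethrin (95% interval -1.02 to 0.17; limma, adjusted p = 0.544) and 0.06 ± 0.27 with clofibrate (95% interval -0.54 to 0.65; adjusted p = 0.940).

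Cox7a2, the common form of subunit VIIa, had 7376, 7337 and 7133 in permethrin livers, 5793, 7784 and 7388 in clofibrate livers, and 6975, 6613 and 6754 in control livers. Every permethrin liver was above every control liver, and the clofibrate livers lay on both sides of the controls. The log2 fold change was 0.10 ± 0.11 with permethrin (limma, adjusted p = 0.726) and 0.03 ± 0.11 with clofibrate (adjusted p = 0.912). A second probe set gave 0.14 with permethrin and 0.22 with clofibrate, the last with an unadjusted p of 0.0329 and an adjusted p of 0.208.

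Cox8a, the common form of subunit VIII, the smallest of these subunits, was the member after Cox6b2 that differed most between the treated groups. Its signals were 1466, 860 and 1317 in permethrin livers, 1621, 2220 and 2203 in clofibrate livers, and 1363, 1268 and 1613 in control livers. All clofibrate livers were above all permethrin livers and above all control livers. The log2 fold change was 0.50 ± 0.19 with clofibrate (95% interval 0.07 to 0.93; limma, unadjusted p = 0.0255, adjusted p = 0.181) and -0.25 ± 0.19 with permethrin (adjusted p = 0.629). Permethrin against clofibrate gave -0.75 ± 0.19 (95% interval -1.18 to -0.32; limma, unadjusted p = 0.00261, adjusted p = 0.137), which did not pass the test over all probe sets. A second Cox8a probe set gave 0.36 with clofibrate and -0.64 for permethrin against clofibrate, with adjusted p values of 0.343 and 0.2004. With arrays scaled to the hybridization controls the clofibrate change was 0.84 (adjusted p = 0.0419), and with array weights it was 0.59 (adjusted p = 0.0439), so the clofibrate call depends on those settings.

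Cox8b, the muscle and brown fat isoform of subunit VIII, was below the filter in all 9 livers. Its signals were 1.63, 1.28 and 2.18 in permethrin livers, 3.52, 0.945 and 3.22 in clofibrate livers, and 1.49, 2.51 and 4.85 in control livers. The 3 groups overlapped, and no test was run. Signals this low have no reliable order.

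Cox4i2, the lung isoform of subunit IV, the largest nuclear subunit and a site of regulation by ATP, was also below the filter in all livers. Its signals were 9.99, 14.2 and 7.01 in permethrin livers, 12.3, 8.71 and 5.91 in clofibrate livers, and 5.39, 7.33 and 3.62 in control livers. The treated and control groups overlapped. Cox4i1, the common form of subunit IV, had 5489, 5537 and 5119 in permethrin livers, 4721, 5641 and 5446 in clofibrate livers, and 5998, 5433 and 5720 in control livers, with overlap between all groups. Its log2 fold change was -0.09 ± 0.09 with permethrin (95% interval -0.29 to 0.11; limma, adjusted p = 0.732) and -0.12 ± 0.09 with clofibrate (95% interval -0.32 to 0.08; adjusted p = 0.538).

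Counted over the members, 0 of 8 tested passed the threshold of an adjusted p of 0.05 under permethrin, and 1 of 8 had an unadjusted p under 0.05, where 2.13% of all 12466 genes passed and 15.8% had an unadjusted p under 0.05 (limma). Under clofibrate 1 of 8 passed, Cox6b2, where 7.03% of all genes passed, 3.22% as higher and 3.8% as lower, and 3 of 8 had an unadjusted p under 0.05, against 21% of all genes. For permethrin against clofibrate 1 of 8 passed, again Cox6b2, where 0.738% of all genes passed and 0.265% as lower in permethrin, and 2 of 8 had an unadjusted p under 0.05, against 13% of all genes. Each count past the adjusted threshold holds at most 1 gene, and nothing is read from any of these counts about the members as a group. Groups that did not overlap with clofibrate above control were seen for 3 tested members (Cox6b2, Cox6a2 and Cox8a), against 11.6% of all genes, and with clofibrate below control for 2 (Cox6a1 and Cox6b1), against 15.6%. With permethrin above control they were seen for 2 (Cox6b2 and Cox7a2), against 9.53%, and with permethrin below clofibrate for 2 (Cox6b2 and Cox8a), against 9.02%. The log2 fold changes of the 5 common isoforms against control lay between -0.31 and 0.50, and the sign of Cox4i1, Cox6a1 and Cox6b1 against control flipped when arrays were scaled to the hybridization controls. In each of these 5 isoforms clofibrate replicate 1 was the lowest clofibrate liver.

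**Figure D2:**
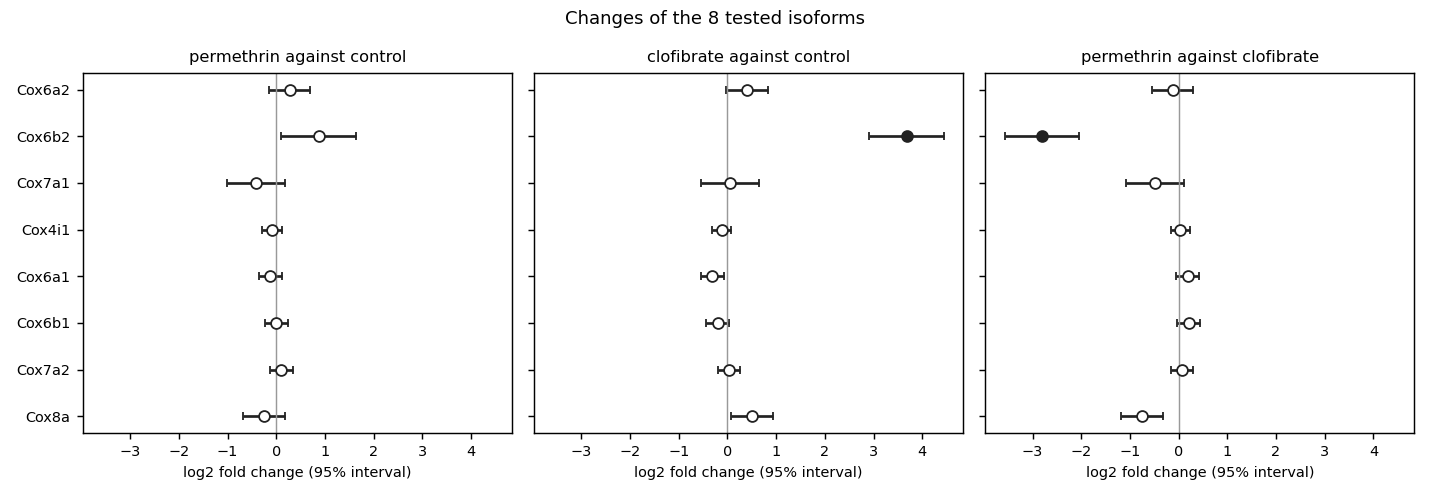
Log2 fold change with its 95% interval for the 8 tested isoforms in 3 panels, each treated diet against control and then permethrin against clofibrate; the axis is in log2 units and filled points passed the test. Cox6b2 stands at 3.68 with clofibrate and at -2.81 for permethrin against clofibrate, and the other 7 isoforms lie between -0.75 and 0.50.

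The pairs were also compared within each liver, as log2 of the tissue-specific signal minus log2 of the common signal. Levels of different probe sets are not on one scale, so only the change of this difference between groups is read. For subunit VIb the difference rose by 3.88 in clofibrate against control livers and by 0.87 in permethrin against control livers, and it changed by -3.01 in permethrin against clofibrate livers. Each gave a two-sided exact permutation p of 0.1, the smallest that 3 livers against 3 can give, and an adjusted p of 0.214 over the 15 pair comparisons. For subunit VIa the change was 0.40 with permethrin and 0.71 with clofibrate, with the same exact p of 0.1. This clofibrate value uses the Cox6a1 probe set that changed by -0.31 with clofibrate, while the second Cox6a1 probe set changed by 0.09. For subunit VIIa the change of the difference was -0.52 with permethrin (exact p = 0.3) and 0.03 with clofibrate (exact p = 0.7). The pairs with Cox4i2 and Cox8b rest on an isoform below the filter: subunit IV changed by 0.72 with permethrin (exact p = 0.1) and by 0.60 with clofibrate (exact p = 0.2), and subunit VIII by -0.04 (exact p = 0.9) and -0.59 (exact p = 0.2). This exact test cannot reach a p under 0.05 with 3 livers against 3.

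The other respiratory chain genes were read as lists. Under permethrin 0 genes passed the test in any list: other oxidase subunits (6 tested), oxidase assembly factors (24), cytochrome c and complex III (10), complex I (32), complex II (4), ATP synthase (15) and mitochondrial biogenesis (11). Among other settings, Cycs passed under permethrin with quantile normalization (0.33, adjusted p = 0.0399) and Ndufab1 with only the 2 groups compared (0.45, adjusted p = 0.0330). The list medians under permethrin lay between -0.14 and -0.03 on the log2 scale, beside -0.04 over all tested genes. Under clofibrate the medians lay between -0.11 and 0.08, again beside -0.04. Across the lists 6 genes passed, where 7.03% of all 12466 tested genes passed (limma).

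Cox17, a copper chaperone that supplies the oxidase during assembly, was the assembly factor that rose, 1 of 24, where 3.22% of all tested genes were called higher. Its signals were 1030, 972 and 1029 in permethrin livers, 1410, 1340 and 1381 in clofibrate livers, and 865, 850 and 849 in control livers, and the 3 groups did not overlap. Its log2 fold change was 0.69 ± 0.09 with clofibrate (limma, adjusted p = 0.00108) and 0.24 with permethrin (adjusted p = 0.249). Cox8c, a further isoform of subunit VIII known from testis, was the subunit that fell, 1 of the 6 other subunits tested. Of all tested genes 3.8% were called lower with clofibrate. Cox8c had 144, 163 and 93.4 in permethrin livers, 95.6, 77.5 and 101 in clofibrate livers, and 230, 189 and 176 in control livers, with all clofibrate livers and all permethrin livers below all control livers. Its log2 fold change was -1.09 ± 0.21 with clofibrate (limma, adjusted p = 0.0103) and -0.59 with permethrin (adjusted p = 0.220). A dimmer Cox8c probe set gave -0.33 (adjusted p = 0.631), and the call was lost with arrays scaled to the hybridization controls (-0.76, adjusted p = 0.0707) and without control replicate 1 (adjusted p = 0.0508).

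Of the other chain genes, Ndufab1, an acyl carrier protein within complex I, rose by 0.75 ± 0.13 with clofibrate (limma, adjusted p = 0.00598), a call that was lost with arrays centred on their median (adjusted p = 0.0519). Ndufs4, an accessory subunit of complex I, rose by 0.44 (adjusted p = 0.0471), Cycs, the somatic cytochrome c, by 0.32 (adjusted p = 0.0483), and Atp5h, a stalk subunit of ATP synthase, fell by 0.34 on the log2 scale (adjusted p = 0.0450). These 3 calls lay close to the threshold and were lost under several other settings. Probe sets also differed. For Ndufs4, a dimmer probe set gave -0.41 (limma, adjusted p = 0.334) and another 0.21 (adjusted p = 0.501). For Cycs, the other probe sets gave 0.59 (limma, adjusted p = 0.0255), 0.35 (adjusted p = 0.0644) and, for the dimmest, -0.93 (adjusted p = 0.223). A second Atp5h probe set gave 0.01. Called genes were thus 2 of 32 in complex I, 1 of 10 for cytochrome c and complex III, and 1 of 15 for ATP synthase. They were 0 of 4 for complex II and 0 of 11 for biogenesis. Over all tested genes 7.03% were called with clofibrate, and nothing is read from these counts about the lists. The complex I count was 0 of 32 with median centring, where 434 of all genes were called. With arrays scaled to the hybridization controls it was 6 of 32, where 1103 of all genes were called.

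**Figure D3:**
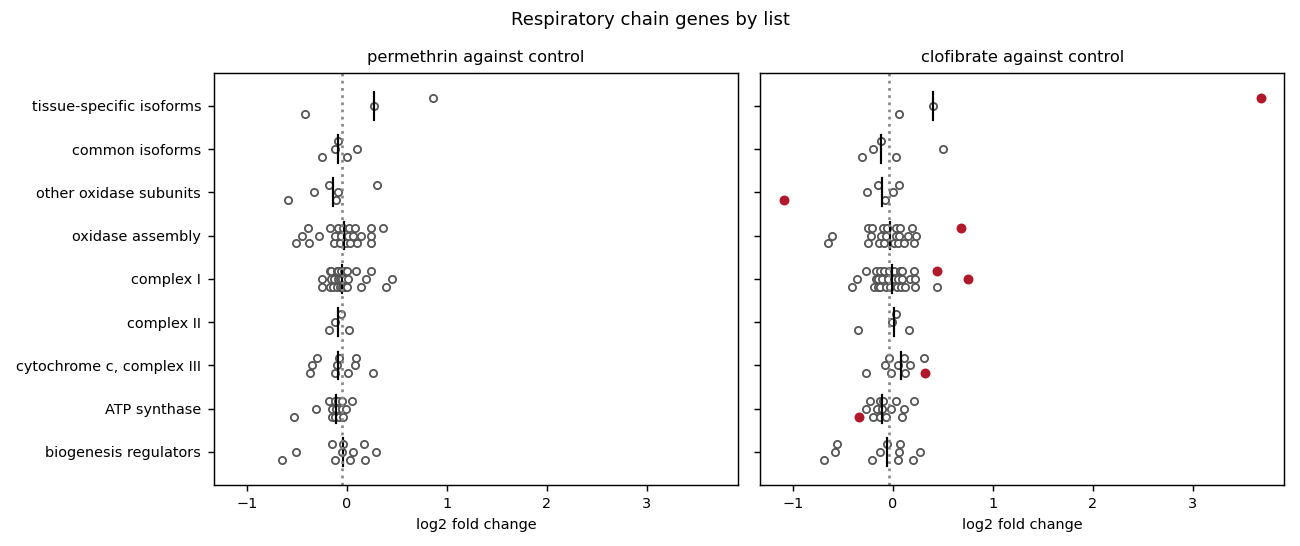
Log2 fold change of the tested genes of each respiratory chain list against control, permethrin on the left and clofibrate on the right; each point is 1 gene, filled points passed the test, and the dotted line is the median of all tested genes, -0.04 in both panels. The short vertical lines are list medians. The permethrin panel has 0 filled points, and in the clofibrate panel the filled point of the tissue-specific isoforms is Cox6b2 at 3.68.

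Markers of tissues that use these isoforms were read beside the members. Of 16 skeletal and heart muscle markers, 4 passed the filter and 9 were below it on all arrays. The summed signal of all 16 ranged from 93.2 to 109 in permethrin livers, 86.1 to 153 in clofibrate livers and 149 to 151 in control livers. The part of these markers in the Cox6a2 and Cox7a1 values was not tested. Of 8 testis germ cell markers, 4 passed the filter. The summed signals of all 8 were 78.4 to 108 in permethrin, 85.4 to 122 in clofibrate and 101 to 153 in control livers. With clofibrate the log2 fold changes of the 4 that passed were -0.93 for Prm1, a protamine and the brightest of them (limma, adjusted p = 0.0294), 0.089 for Prm2 (adjusted p = 0.955), 0.34 for Sycp3 (adjusted p = 0.598) and 0.86 for Ldhc (adjusted p = 0.503), with a list median of 0.22. The Prm1 call was lost with arrays centred on their median or scaled to the hybridization controls, and the part of these markers in the Cox6b2 values was not tested. Of 7 brown fat markers on the array, 3 passed the filter. The summed signals of all 7 were 246 to 665 in permethrin, 282 to 556 in clofibrate and 121 to 179 in control livers. Elovl3, a fatty acid elongase, made up most of that sum and rose with permethrin (limma, adjusted p = 0.0422) and with clofibrate (adjusted p = 0.0494). The clofibrate call was lost with the offset at the median signal, with quantile normalization and with median centring. With permethrin and clofibrate Dio2 changed by 0.49 and 0.54 and Prdm16 by 0.16 and 0.25 on the log2 scale, and neither gene was called. Ucp1, the uncoupling protein that defines brown fat, was at most 5.16 on any array. The part of these markers in the Cox7a1 and Cox8b values was not tested. Of 6 lung epithelium markers 0 passed the filter. Of 8 smooth muscle and pericyte markers 6 passed it, with median log2 fold changes of -0.03 with permethrin and -0.52 with clofibrate. Of 5 white fat markers on the array 2 passed it, with medians of 0.11 and 0.51. In these last 2 lists 0 genes were called against control, and 1 white fat marker was called with clofibrate when arrays were scaled to the hybridization controls.

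Array measures also moved with the groups. The hybridization controls averaged 9.97 ± 0.18 on the log2 scale in permethrin, 9.78 ± 0.12 in clofibrate and 10.1 ± 0.16 in control livers (SD, n = 3 each). The signal of 18S ribosomal RNA was 62.6 ± 31.0 in permethrin, 59.7 ± 11.2 in clofibrate and 159 ± 36.2 in control livers (SD, n = 3 each). Gapdh probe sets at the transcript's 3' and 5' ends stood in a ratio of 0.870 ± 0.0341 in permethrin, 0.870 ± 0.0215 in clofibrate and 0.967 ± 0.0656 in control livers. Cox6b2 was past the threshold under clofibrate in all 18 alternative settings, scaling to the hybridization controls included, with log2 fold changes from 2.91 to 4.12. None of those settings adjusts for the 18S signal or the Gapdh ratio, whose part in the values of Cox6b2 and of the other members was not tested.

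The genes whose log2 signal followed Cox6b2 most closely over the 9 arrays were Trpm4, a calcium-activated cation channel (Pearson r = 0.994), Uap1l1, a relative of a nucleotide sugar pyrophosphorylase (0.987), Lamb3, a laminin chain (0.987), Grhpr, a glyoxylate reductase (0.980), and Cyp51, a cholesterol synthesis enzyme (0.975). These are descriptions over 9 arrays that share the 3 groups, and 0.842% of 12465 genes had an r above 0.9. Within groups, after each group's mean was taken away, r was 0.964 for Trpm4, 0.827 for Uap1l1, 0.862 for Lamb3, 0.769 for Grhpr and 0.673 for Cyp51. The 5 genes were picked by the r over all 9 arrays, which already holds these deviations. The within-group values are therefore no separate evidence, and no share over all genes was computed for them. Trpm4 had signals of 27.9, 33.4 and 35.4 in permethrin livers, 67.5, 150 and 106 in clofibrate livers, and 21.3, 25.9 and 26.1 in control livers. In both Trpm4 and Cox6b2 clofibrate replicate 1 was the lowest and replicate 2 the highest of the clofibrate livers. Lamb3 had the widest span of the 5 on the log2 scale, with signals of 31.6, 31.997 and 58.9 in permethrin, 193, 981 and 468 in clofibrate, and 16.1, 23.9 and 20.2 in control livers.

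**Figure D4:**
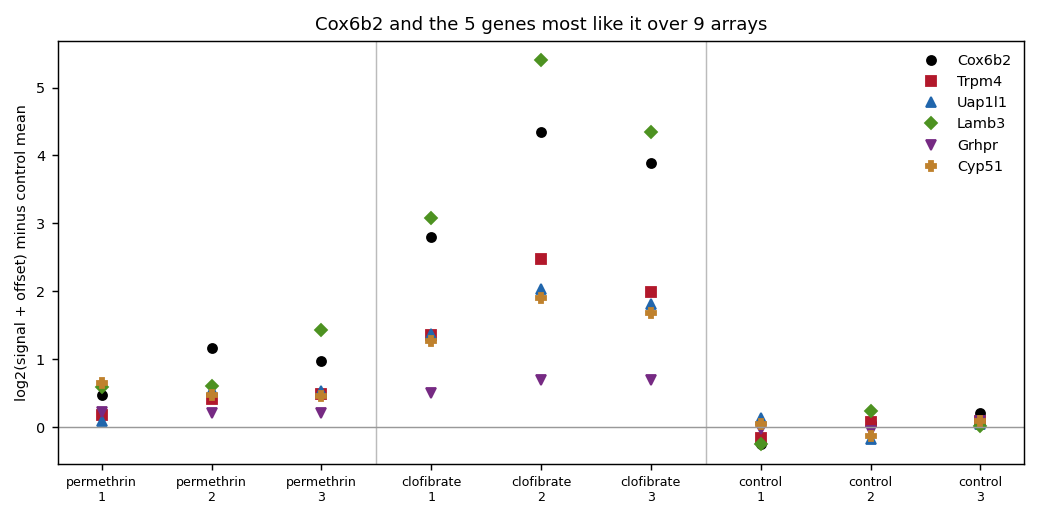
Log2(signal + offset) minus the control mean for Cox6b2 and the 5 genes most like it, 1 position per liver, in the order permethrin, clofibrate, control. Cox6b2 lies between 2.79 and 4.35 in clofibrate livers, and Trpm4, the closest of the 5, lies between 1.35 and 2.47 there.

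The neighbours of Cox6b2 were taken as the next and the second protein-coding gene on each side. Of these 4, 3 had a probe set of their own, and Fam71e2, the nearest protein-coding gene on one side, had no probe set assigned to it alone. Kmt5c, a histone methyltransferase and the nearest protein-coding gene on the other side, had a log2 fold change of -0.25 with permethrin (limma, adjusted p = 0.505) and 0.18 with clofibrate (adjusted p = 0.566). Tmem150b averaged 12.4 in permethrin, 18.04 in clofibrate and 7.83 in control livers, and Il11, an interleukin, 4.09, 4.90 and 5.25, and both were too low to be tested.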

How the data were processed

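Liver RNA of 9 mice was measured on 9 arrays, 3 per group. The deposited table holds MAS5 intensity values on a linear scale, made by the authors; per the submitters' processing notes the tool was MAS5, and its version is not given in the sources used here. Of 45101 probe sets 64 are controls; 34945 of the rest carry 1 gene symbol, 932 several and 9160 none. Symbols come from the platform annotation, updated by gene ID to RefSeq. The analysis took log2(signal + 3.35), the offset being the 20th percentile of all signals, kept 24546 probe sets above 15.6, the median signal, on at least 3 arrays, and fitted 1 mean per group with limma 3.58.1 in R 4.3.3 (intensity trend, Benjamini-Hochberg over all 24546, two-sided), checked on simulated data. In the simulated data, for clofibrate against control, 9 of 50 probe sets changed 1.5-fold were called and 30 of 50 changed 2-fold. Changes of that size can thus go uncalled, but these shares are not the power for the members. The simulation changed fewer probe sets than were called in the data, and it drew them from all signal levels. Arrays have no read depth, and 3 per group limits the precision. Named genes are all members, up to 4 called genes per pathway list with the largest change, the exposure genes and the 5 genes most correlated with Cox6b2. The brightest marker is named for the hepatocyte, testis and brown fat lists alone. Ucp1, Dio2, Prdm16, Prm2, Sycp3, Ldhc, the other probe sets of Ndufs4, Cycs, Atp5h and Cox8c, and the neighbours were added after their values were seen. Members and lists were chosen with earlier results of these data known. Alternatives covered the offset, scaling, filter, fit, probe set and single livers; the replicate numbers did not pair livers (correlation of deviations from -0.109 to 0.113 over 9 same-numbered pairs).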

Additional observations from a re-analysis of the deposited data

Results flagged for a closer look

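Cox6b2 stood out because its response differed between the treated diets by a test of the difference itself: permethrin minus clofibrate was -2.81 on the log2 scale (limma, adjusted p = 0.00558). The 3 permethrin livers had signals of 17.6, 30.3 and 26.0, against 101, 302 and 220 in the 3 clofibrate livers, and the difference had this direction in 18 of 18 alternative settings. Settings that change only the filter or the variance estimate leave the fold change as it is. With signals this far apart the others could hardly turn its sign, so the count adds no separate evidence for the direction.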

How the results depend on the processing

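Cox6b2 kept its direction and its side of the threshold in all 18 alternatives of each comparison: its log2 fold change ran from 0.54 to 1.06 with permethrin (limma, adjusted p from 0.156 to 0.547), from 2.91 to 4.12 with clofibrate (7.77e-06 to 0.00302) and from -3.25 to -2.37 for permethrin against clofibrate (0.000669 to 0.0481). Livers of the same number share only that number; with the replicate number as a replicate block its adjusted p was 0.156, 7.15e-05 and 0.00290, no member's call changed, and the calls numbered 205, 726 and 63 in the same order of comparisons. The number of called genes moved more. For permethrin against control, 266 genes (160 higher, 106 lower) became 124 (106 higher, 18 lower) with median centring, 166 (144 higher, 22 lower) with scaling to the hybridization controls and 80 without the intensity trend. For clofibrate against control, 876 (402 higher, 474 lower) became 434 (286 higher, 148 lower) with median centring, 397 without the trend and 1496 with array weights, and scaling to the hybridization controls turned the split to 1015 higher and 88 lower. For permethrin against clofibrate, 92 (59 higher, 33 lower) became 18 (15 higher, 3 lower) with median centring, 43 (9 higher, 34 lower) with the hybridization controls, 10 without the trend, 226 with array weights and 48 with only the 2 groups compared. Leaving out 1 liver gave 108 to 189 calls for permethrin, 430 to 828 for clofibrate and 17 to 119 for permethrin against clofibrate. The count moved by over 1.5 times without control replicate 1 (108 and 473), control replicate 2 (174 and 558) or control replicate 3 (130 and 496); for permethrin without its replicate 2 (170) or 3 (121); for clofibrate without its replicate 3 (430); and for permethrin against clofibrate without permethrin replicate 1 (47), 2 (57) or 3 (61) or clofibrate replicate 2 (50) or 3 (17). Scaling to the hybridization controls moved the median gene to 0.09 with permethrin, 0.27 with clofibrate and -0.18 between them.

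Cox8a passed the threshold for permethrin against clofibrate with array weights (-0.79, adjusted p = 0.0473). Small uncalled values changed sign. With quantile normalization Cox4i1 became 0.0020 with permethrin, 0.11 with clofibrate and -0.10 for permethrin against clofibrate, Cox6b1 0.087 and Ndufs4 -0.034 with permethrin, and Cox7a2 -0.076 for permethrin against clofibrate. With median centring Cox4i1, Cox6a1 and Cox6b1 became 0.042, 0.0083 and 0.13 with permethrin. With the hybridization controls they became 0.061, 0.0273 and 0.15 with permethrin and 0.21, 0.0275 and 0.13 with clofibrate, Atp5h 0.0027 with permethrin, and Cox4i1 -0.15, Cox6a1 -0.00027 and Cox7a2 -0.12 for permethrin against clofibrate. With array weights Cox6b1 became 0.0039 with permethrin and Cox4i1 -0.0046 for permethrin against clofibrate. With the other probe set, Cox6a2 became -0.027, -0.15 and 0.12 (permethrin, clofibrate and between them), Cox6b1 0.081 with permethrin, Cox6a1 0.093 with clofibrate and -0.17 between them, and Cox7a2 -0.078 between them. The Cox8b minus Cox8a difference with permethrin became 0.15 with an offset at the median signal and 0.033 with a dim Cox8a probe set; Cox7a1 minus Cox7a2 with clofibrate became -0.16, and Cox6a2 minus Cox6a1 between the treated groups 0.0495, with the other probe set of the common isoform. Leaving out 1 liver ran through 0 for Cox6b1 (-0.030 to 0.048) and Ndufs4 (-0.047 to 0.078) with permethrin, Cox7a1 (-0.028 to 0.14) and Cox7a2 (-0.051 to 0.16) with clofibrate, Cox4i1 (-0.0435 to 0.085) and Cox7a2 (-0.059 to 0.15) for permethrin against clofibrate, and the differences Cox8b minus Cox8a (-0.21 to 0.12) with permethrin, Cox7a1 minus Cox7a2 (-0.080 to 0.13) with clofibrate and Cox4i2 minus Cox4i1 (-0.094 to 0.39) between the treated groups. The cause was not tested for these changes. Pathway genes were rerun as an alternative added after the data were seen: of the clofibrate calls, Atp5h, Ndufs4 and Cycs lost the threshold most often, and 2 permethrin values gained it, Cycs with quantile normalization (0.33) and Ndufab1 with only the 2 groups compared (0.45). Signal over background limits Cox4i2 and Cox8b, which had no test.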
